A study of Mus musculus with 20 samples.

Results

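The guanylate-binding proteins are a family of large GTPases, and 8 of their mouse genes, Gbp2, Gbp3, Gbp4, Gbp5, Gbp6, Gbp7, Gbp8 and Gbp9, are described here in macrophages exposed to airway fluid. The rule that found the members uses gene names and no measured values, and it gave 8 of the 78317 gene rows of the count table. The table also holds 4 other rows named Gbp followed by a digit: Gbp2b, Gbp10, Gbp11 and the pseudogene Gbp2-ps.

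All 20 libraries came from bone marrow-derived macrophages (BMDMs) of wildtype female C57BL/6J mice, in 5 groups of 4. The control group received PBS. The other groups received fractions of bronchoalveolar lavage fluid (BALF), enriched by size exclusion for extracellular vesicles (EVFx) or for protein (ProteinFx), from mice with airway inflammation induced by ovalbumin (OVA). The BALF donors were RNY1+/+ or RNY1-/-, the latter whole-body CRISPR knockouts of the small noncoding RNA RNY1, so that genotype here refers to the source of the fluid and never to the macrophages. EVFx was matched between genotypes by particle number and ProteinFx at 0.75 micrograms of protein per microlitre, and cells were treated on culture day 7 with fractions kept 5 days in the cold. All BALF came from OVA-treated donors, and the groups compared here hold no fluid of uninflamed mice. The labels place all libraries in 1 batch and leave unstated if a group's 4 libraries stem from different mice, fluid pools or wells, so p-values measure the spread between these libraries, which may be technical.

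Libraries held 2510005 to 8277366 counts, with a median of 5456425. The 8 macrophage markers listed (among them Adgre1, Csf1r and Lyz2) summed to 8567 to 13490 CPM, the counts scaled to a common library total, per library, and all 8 were detected in every library. The markers of T and NK cells reached at most 1.14 CPM in sum, those of B cells 1.68 and those of dendritic cells 1.59. Eosinophil markers reached at most 2.83 CPM and lung epithelium markers 3.30. Fibroblast markers summed to 18.8 to 42.0 CPM in PBS and 8.62 to 18.7 with RNY1-/- EVFx, with Col1a1 and Col1a2 above 3 counts in all 20 libraries. S100a8 and S100a9 made up nearly all of the neutrophil list, which summed to 268 to 328 CPM in PBS and 140 to 207 CPM with RNY1+/+ EVFx, while Ly6g, Mpo and Elane stayed at or under 3 counts in all 20 libraries. The part of these differences in the results below was not tested. The 4 RNY1-/- ProteinFx libraries stood in pairs for several members, replicates 1 and 2 against 3 and 4, and the comparisons that use them are given for each pair as well. In bulk RNA, fewer cells that express a gene and less RNA per cell cannot be told apart.

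Guanylate-binding proteins are among the genes most strongly induced by interferons, above all interferon gamma. In macrophages they gather on the vacuoles that enclose intracellular parasites and bacteria and on the bacterial surface, together with the immunity-related GTPases, and help to open these compartments to autophagy proteins and to inflammasomes. Gbp2 and Gbp5 end in a CaaX motif, to which a lipid is attached that anchors the protein in membranes. Interferon signals reach DNA at sequences named the interferon-stimulated response element (ISRE) and the gamma-activated site (GAS).

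In the RefSeq annotation, Gbp2, Gbp3, Gbp5 and Gbp7 lie in 1 cluster on chromosome 3 and Gbp4, Gbp6, Gbp8 and Gbp9 in another on chromosome 5. RefSeq promoters (GRCm38.p6, 250 bases before to 50 after the annotated start) were found for the 4 chromosome 3 members. They are shown because all 4 members rose together under every fraction, and they hold the letters of the core motifs that interferon-responsive factors bind. Capitals mark the ISRE core, searched as GAAANNGAAA and its reverse complement TTTCNNTTTC, and the GAS core, searched as TTCNNNGAA, which reads the same on both strands. No ISRE match overlapped a GAS match in them.
Gbp2, chr3:142620413-142620712, plus strand: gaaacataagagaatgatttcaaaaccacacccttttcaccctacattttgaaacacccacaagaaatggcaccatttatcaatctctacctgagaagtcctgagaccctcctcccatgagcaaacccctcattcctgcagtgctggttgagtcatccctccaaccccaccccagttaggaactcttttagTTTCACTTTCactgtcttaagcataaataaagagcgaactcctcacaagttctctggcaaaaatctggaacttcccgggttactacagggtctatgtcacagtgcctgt
Gbp3, chr3:142559794-142560093, plus strand: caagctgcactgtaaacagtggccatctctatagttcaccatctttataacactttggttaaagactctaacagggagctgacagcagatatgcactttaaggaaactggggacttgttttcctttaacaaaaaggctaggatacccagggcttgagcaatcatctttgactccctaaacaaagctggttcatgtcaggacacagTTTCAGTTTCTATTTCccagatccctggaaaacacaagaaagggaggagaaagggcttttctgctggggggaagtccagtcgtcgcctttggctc
Gbp5, chr3:142496684-142496983, plus strand: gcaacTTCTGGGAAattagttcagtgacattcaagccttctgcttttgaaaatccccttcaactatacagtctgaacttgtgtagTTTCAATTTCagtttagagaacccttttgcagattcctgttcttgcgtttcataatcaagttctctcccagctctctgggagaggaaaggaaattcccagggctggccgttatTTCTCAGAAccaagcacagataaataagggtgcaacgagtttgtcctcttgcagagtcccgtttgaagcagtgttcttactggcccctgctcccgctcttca
Gbp7, chr3:142530086-142530385, plus strand: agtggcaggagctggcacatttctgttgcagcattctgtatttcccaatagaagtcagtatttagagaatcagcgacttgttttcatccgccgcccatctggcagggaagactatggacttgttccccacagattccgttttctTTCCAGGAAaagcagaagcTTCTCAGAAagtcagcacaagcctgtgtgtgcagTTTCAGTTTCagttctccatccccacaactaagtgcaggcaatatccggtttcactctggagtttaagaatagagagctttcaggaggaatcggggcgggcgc

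The ISRE core was present in all 4 promoters printed, each time as the reverse complement relative to the gene. Among 32851 promoters of the same length, 3.44% held it. It began 59 bases before the start in Gbp2, 53 before in Gbp7 and 165 before in Gbp5. In Gbp3 a pair of overlapping matches began 45 and 39 bases before the start, and another annotated start of Gbp3 (chr3:142560106-142560405) held neither motif. The Gbp3 start printed is thus the one with the motif, and the shares of all promoters and genes are given as a description only. The GAS core was found in Gbp5, beginning 245 and 52 bases before the start, and in Gbp7, beginning 106 and 87 bases before it, against 8.3% of all promoters. A match of letters is a description and not evidence of binding, and its absence in Gbp2 and Gbp3 says only that these letters are not in these windows.

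**Figure D1:**
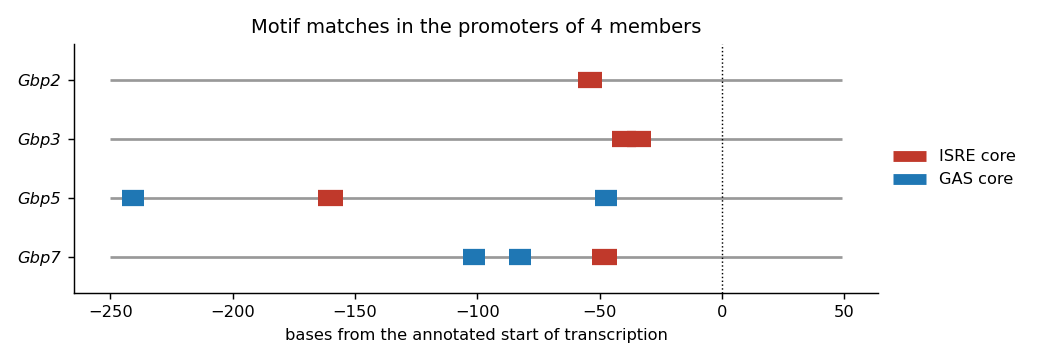
Positions of the ISRE core (red) and the GAS core (blue) in the 300-base promoters of the 4 chromosome 3 members, in bases from the annotated start of transcription (dotted line). Each of the 4 holds an ISRE core, and Gbp5 and Gbp7 also hold a pair of GAS cores.

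All 8 members were higher with each of the 4 airway-fluid fractions than with PBS, and each passed the limits for a differentially expressed gene (DEG; edgeR adjusted p under 0.05 and absolute log2 fold change above 1) in each comparison. The members' median log2 fold change was 4.01 with RNY1+/+ EVFx, 4.14 with RNY1-/- EVFx, 4.87 with RNY1+/+ ProteinFx and 4.09 with RNY1-/- ProteinFx, while the medians of all genes tested lay at -0.03 in each. Of all genes tested, 8.24% were higher DEGs with RNY1+/+ EVFx, 9.03% with RNY1-/- EVFx, 8.96% with RNY1+/+ ProteinFx and 6.31% with RNY1-/- ProteinFx. These 4 comparisons share the PBS libraries. The summed level of the 8 members was 73.2 to 80.1 CPM in PBS, 1019 to 1559 with RNY1+/+ EVFx, 862 to 1530 with RNY1-/- EVFx, 1681 to 2094 with RNY1+/+ ProteinFx and 1222 to 1390 with RNY1-/- ProteinFx. Thus no treated library overlapped the PBS libraries in this sum, and the 2 ProteinFx groups did not overlap each other.

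**Figure D2:**
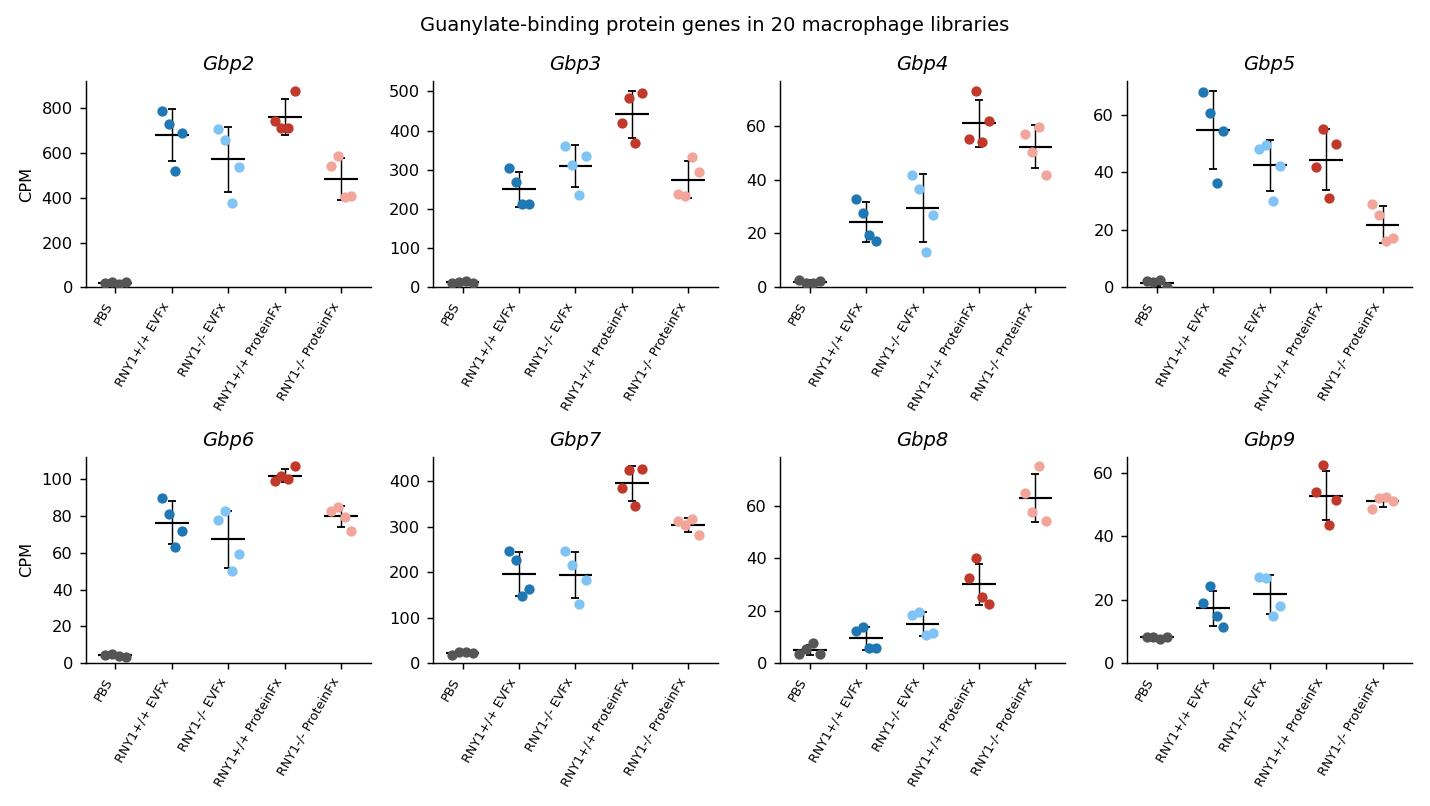
CPM of the 8 members in 20 libraries, 1 point per library, with the mean (line) and SD (bar) of each group of 4. In the 7 panels other than Gbp8, every fraction-treated library lies above every PBS library. With ProteinFx, Gbp2, Gbp3, Gbp5, Gbp6 and Gbp7 are lower and Gbp8 higher when the donor was RNY1-/-, without overlap.

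Among the chromosome 3 members, Gbp2, a prenylated protein found on parasite vacuoles, stood at 21.7, 21.9, 15.1 and 23.7 CPM in the PBS libraries. It stood at 787, 730, 519 and 690 CPM with RNY1+/+ EVFx and at 710, 659, 379 and 539 with RNY1-/- EVFx. With ProteinFx it measured 745, 713, 713 and 879 CPM from RNY1+/+ donors and 543, 586, 402 and 409 from RNY1-/- donors. The treated libraries were all far above PBS, and the last group was the lowest of the treated ones in its mean, at 485 CPM ± 93.1 (SD, n = 4). Log2 fold changes against PBS ran from 4.61 (SE 0.19) with RNY1-/- ProteinFx to 5.37 (SE 0.17) with RNY1+/+ ProteinFx, or 24.4-fold to 41.4-fold.

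Gbp3, which lies between Gbp7 and Gbp2b in the same cluster, stood at 11.5, 12.8, 16.9 and 11.9 CPM in PBS. It reached 304, 269, 212 and 214 CPM with RNY1+/+ EVFx and 360, 311, 234 and 334 with RNY1-/- EVFx. With RNY1+/+ ProteinFx it was at 418, 484, 368 and 496 CPM, above every library of the other groups. With RNY1-/- ProteinFx it was at 239, 232, 332 and 295 CPM, within the range of the EVFx groups. Its log2 fold change against PBS was thus highest with RNY1+/+ ProteinFx, at 5.23 (SE 0.17), and 4.42 (SE 0.18), 4.80 (SE 0.19) and 4.45 (SE 0.20) with RNY1+/+ EVFx, RNY1-/- EVFx and RNY1-/- ProteinFx.

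Gbp5, another prenylated member, linked to assembly of the NLRP3 inflammasome, was scarce without treatment. It measured 2.25, 1.70, 2.40 and 0.178 CPM in PBS, the last from a single count, and its folds against PBS are correspondingly uncertain. It rose to 67.8, 60.6, 36.1 and 54.3 CPM with RNY1+/+ EVFx and to 48.0, 49.4, 30.0 and 42.3 with RNY1-/- EVFx. With ProteinFx it was at 41.8, 54.9, 30.9 and 49.9 CPM from RNY1+/+ donors and at 29.1, 25.0, 16.1 and 17.1 from RNY1-/- donors. The group with RNY1-/- ProteinFx lay below every library of the 3 other treated groups and above PBS. Log2 fold changes against PBS were 5.30 (SE 0.36) with RNY1+/+ EVFx and 3.86 (SE 0.40) with RNY1-/- ProteinFx.

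Gbp7, the remaining chromosome 3 member, ran from 18.4 to 23.4 CPM in PBS, from 147 to 247 with RNY1+/+ EVFx and from 130 to 247 with RNY1-/- EVFx. It ran from 346 to 426 CPM with RNY1+/+ ProteinFx and from 281 to 317 with RNY1-/- ProteinFx. Both ProteinFx groups were above both EVFx groups, and the RNY1+/+ ProteinFx group was above the RNY1-/- one, each without overlap. Its log2 fold change against PBS was 3.33 (SE 0.19) and 3.37 (SE 0.20) with the EVFx groups and 4.33 (SE 0.13) and 3.85 (SE 0.12) with the ProteinFx groups, RNY1+/+ first.

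Among the chromosome 5 members, Gbp8 had a small response to EVFx and a larger one to ProteinFx, fractions whose doses are set in different units. It measured 3.59, 5.41, 7.51 and 3.44 CPM in PBS, and 12.3, 13.9, 5.74 and 5.84 with RNY1+/+ EVFx, so that these 2 groups overlapped. It measured 18.5, 19.4, 10.8 and 11.4 CPM with RNY1-/- EVFx. With ProteinFx it was at 32.3, 40.1, 25.3 and 22.6 CPM from RNY1+/+ donors and at 65.0, 57.6, 75.3 and 54.5 from RNY1-/- donors, which lay above every other library. The log2 fold change against PBS was 1.12 (SE 0.35, edgeR adjusted p = 0.0232) with RNY1+/+ EVFx, and 3.73 (SE 0.23, edgeR adjusted p = 1.19e-06) with RNY1-/- ProteinFx. The first of these calls was lost without PBS replicate 1 (log2 fold change 1.01, adjusted p = 0.0617) or 4 (0.98, adjusted p = 0.071), and without RNY1+/+ EVFx replicate 1 (0.97, adjusted p = 0.0711) or 2 (0.88, adjusted p = 0.0797). It was also lost with total counts (0.94) and after removal of length and GC trends (0.93).

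Gbp9, its neighbour, was also higher with ProteinFx than with EVFx, but its ProteinFx groups overlapped. It ran from 7.68 to 8.36 CPM in PBS, from 11.4 to 24.2 with RNY1+/+ EVFx, from 14.9 to 27.0 with RNY1-/- EVFx, from 43.6 to 62.3 with RNY1+/+ ProteinFx and from 48.5 to 52.4 with RNY1-/- ProteinFx. Log2 fold changes against PBS were 1.27 (SE 0.22) with RNY1+/+ EVFx and 2.86 (SE 0.14) with RNY1+/+ ProteinFx. Gbp4, described as a brake on IRF7 activation, went from between 1.5 and 2.87 CPM in PBS to between 13 and 41.8 CPM with the EVFx groups and between 41.8 and 73.0 with the ProteinFx groups. Gbp6 went from between 3.26 and 4.88 CPM in PBS to between 49.9 and 89.9 with the EVFx groups and between 71.9 and 107 with the ProteinFx groups. In the longest transcript of Gbp6, 77.8% of the 50-base windows in the last 500 bases also occur in transcripts of Gbp10, Gbp9 or Gm43302. By the same measure Gbp4 shares 6.43% of its end windows, and the 6 other members share none. This covers the end of 1 transcript per gene, and other transcripts can share windows, as those of Gbp9 do with Gbp6. Reads that map to several genes were shared out as fractions, and fractional counts occurred in 18 of 20 libraries for Gbp6, 17 for Gbp4, 15 for Gbp9, 13 for Gbp8, 11 each for Gbp3 and Gbp5, 9 for Gbp7 and 1 for Gbp2. The split of reads is least certain for Gbp6, and the fractional counts leave some uncertainty for the other members, least for Gbp2.

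**Figure D3:**
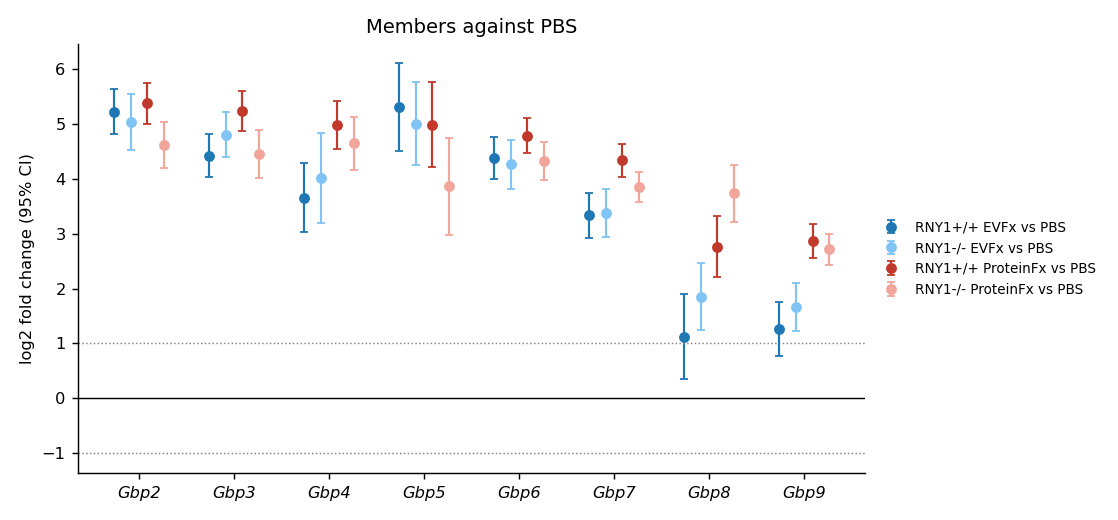
Log2 fold change against PBS of the 8 members for each of the 4 fractions (edgeR, points) with 95% confidence intervals (bars); dotted lines mark a change of 1 either way. All values lie above 1, Gbp8 and Gbp9 being lowest with EVFx.

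Taking the groups in order of their mean CPM, PBS was the lowest group for all 8 members. RNY1+/+ ProteinFx was the highest for Gbp2, Gbp3, Gbp4, Gbp6, Gbp7 and Gbp9, RNY1+/+ EVFx for Gbp5 and RNY1-/- ProteinFx for Gbp8. For Gbp2 the 4 treated groups formed a chain in which each overlapped its neighbour, with edgeR adjusted p = 0.114, 0.370 and 0.242 between successive groups. For Gbp4 they formed such a chain too (adjusted p = 0.237, 0.0849 and 0.226). The lowest and highest group of each chain did differ. These were RNY1-/- and RNY1+/+ ProteinFx for Gbp2 (edgeR adjusted p = 0.00573) and RNY1+/+ EVFx and RNY1+/+ ProteinFx for Gbp4 (edgeR adjusted p = 1e-05). For Gbp9 the 2 EVFx groups overlapped (adjusted p = 0.124), the 2 ProteinFx groups overlapped (adjusted p = 0.601), and the step from the former to the latter was without overlap. A p that misses the limit does not show equal levels.

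Whether fluid lacking RNY1 gave another response was asked within each fraction. Within EVFx, no member was a DEG in either direction between RNY1-/- and RNY1+/+ source, and the libraries of the 2 groups overlapped for all 8 members. Of all genes tested, 0.378% were higher and 1.98% were lower DEGs, so that 16.1% of the 243 DEGs were higher. This balance turned after removal of length and GC trends, when 63.4% of 93 DEGs were higher, and it was 6.88% of 320 with total counts. By adjusted p alone, Gbp3 was higher by 0.38 (SE 0.14, edgeR adjusted p = 0.0348) and Gbp8 by 0.74 (SE 0.27, edgeR adjusted p = 0.0363) on the log2 scale, 2 of 8 members against 52.1% of all genes. Both lost this with total counts (adjusted p = 0.0735 and 0.0602) and after removal of GC trends (adjusted p = 0.0865 and 0.109), and over 8 fits that each left out 1 library Gbp3 kept it in 2 and Gbp8 in 4. The 95% intervals of the other 6 members all held 0. They ran from -0.54 to 0.18 for Gbp2, from -0.66 to 0.08 for Gbp5 and from -0.19 to 0.97 for Gbp4, so that changes of up to about these sizes could not be seen. In this comparison the fold changes of all genes followed the GC content of their transcripts. The Spearman coefficient was -0.654 over 10019 genes, a description only since genes do not vary independently. It was -0.495 for RNY1-/- ProteinFx against PBS, -0.493 between fractions from RNY1+/+ donors, 0.585 for the interaction and 0.156 between genotypes in ProteinFx. With the trends removed between genotypes in EVFx, Gbp6 differed by -0.41 (adjusted p = 0.0370) in place of -0.11, and no other member passed.

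Within ProteinFx, 5 members were lower and 1 was higher with RNY1-/- than with RNY1+/+ source by adjusted p. This compares with 5.57% of all genes tested in either direction by adjusted p. The libraries of the 2 groups did not overlap for any of these members. The share of all genes without overlap was not counted, here or in the other comparisons, so overlap is given as a description only. Gbp5 was the only member DEG. It fell by 1.09 on the log2 scale (SE 0.20, edgeR adjusted p = 0.00738), to 0.470 of its level with RNY1+/+ ProteinFx, where 1.17% of all genes were lower DEGs. Gbp2 fell by 0.74 (SE 0.13, edgeR adjusted p = 0.00573), Gbp3 by 0.77 (SE 0.15, edgeR adjusted p = 0.0106), Gbp6 by 0.44 (SE 0.10, edgeR adjusted p = 0.0168) and Gbp7 by 0.47 (SE 0.11, edgeR adjusted p = 0.0211). All 4 chromosome 3 members thus fell by adjusted p, and of the chromosome 5 members Gbp6 alone did. Gbp10, a row outside the members, fell by 0.44 as well (SE 0.12, edgeR adjusted p = 0.0456). Most end windows of Gbp6 also occur in transcripts of Gbp10, Gbp9 or Gm43302, so this fall cannot be placed on Gbp6 alone.

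Gbp8 moved the other way. It rose by 0.98 on the log2 scale (SE 0.17, edgeR adjusted p = 0.00496), 1.98-fold, just short of the limit on fold change, above which 0.659% of all genes were higher DEGs. Gbp4 and Gbp9, the genes beside it, did not pass, with log2 differences of -0.32 (95% interval -0.61 to -0.02, edgeR adjusted p = 0.226) and -0.14 (-0.40 to 0.12, edgeR adjusted p = 0.601). Gbp11, described below, differed by 0.55 (SE 0.17, edgeR adjusted p = 0.0825), with 11.5 to 15.7 CPM from RNY1+/+ and 16.6 to 23.7 from RNY1-/- donors, which did not overlap. In the plane of both genes, Gbp5 lay at 16.1 to 29.1 CPM and Gbp8 at 54.5 to 75.3 with RNY1-/- ProteinFx, against 30.9 to 54.9 and 22.6 to 40.1 with RNY1+/+ ProteinFx.

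**Figure D4:**
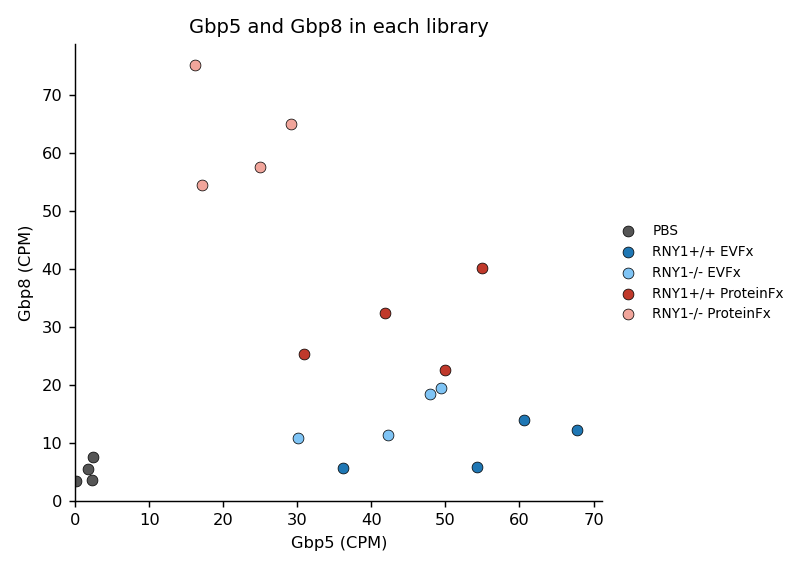
CPM of Gbp5 (horizontal) and Gbp8 (vertical) in each of the 20 libraries, coloured by group. The 4 RNY1-/- ProteinFx libraries lie highest for Gbp8, between 54.5 and 75.3 CPM, and at 16.1 to 29.1 CPM for Gbp5, and the EVFx libraries lie lowest among treated libraries for Gbp8.

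The directions held in both pairs of RNY1-/- ProteinFx libraries, but the sizes differed. With replicates 1 and 2 alone, Gbp3 fell by 1.05 (adjusted p = 0.000152), Gbp5 by 0.86 (adjusted p = 0.00498) and Gbp2 by 0.57 (adjusted p = 0.00333), and Gbp8 rose by 0.90 (adjusted p = 0.00197). With replicates 3 and 4 alone, Gbp3 fell by 0.54 (adjusted p = 0.0253), Gbp5 by 1.45 (adjusted p = 0.00208) and Gbp2 by 0.95 (adjusted p = 0.00057), and Gbp8 rose by 1.07 (adjusted p = 0.00513). Replicates 3 and 4 held 2510005 and 3855450 counts against 5293171 and 7149366 in replicates 1 and 2, and the part of depth in this was not tested. The DEG call of Gbp5 was lost without RNY1+/+ ProteinFx replicate 2 (log2 fold change -0.99, adjusted p = 0.0252) and without RNY1-/- ProteinFx replicate 3 (-0.998, adjusted p = 0.00708), where the value fell just short of the limit. It was lost in the same way with total counts (-0.99) and with RNY1-/- ProteinFx replicates 1 and 2 alone, where Gbp3 was the only member DEG. Gbp8 became a DEG with total counts (1.07), with no filter on low counts (1.00), after removal of trends (1.03), with replicates 3 and 4 alone and in 4 of 8 fits that each left out 1 library. Those were the fits without RNY1+/+ ProteinFx replicate 1 or 2 or RNY1-/- ProteinFx replicate 2 or 4, and the range over all 8 was 0.87 to 1.14. Gbp7 kept an adjusted p under 0.05 in only 3 of 8 fits that each left out 1 library, while Gbp2, Gbp5 and Gbp8 kept it in all 8.

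**Figure D5:**
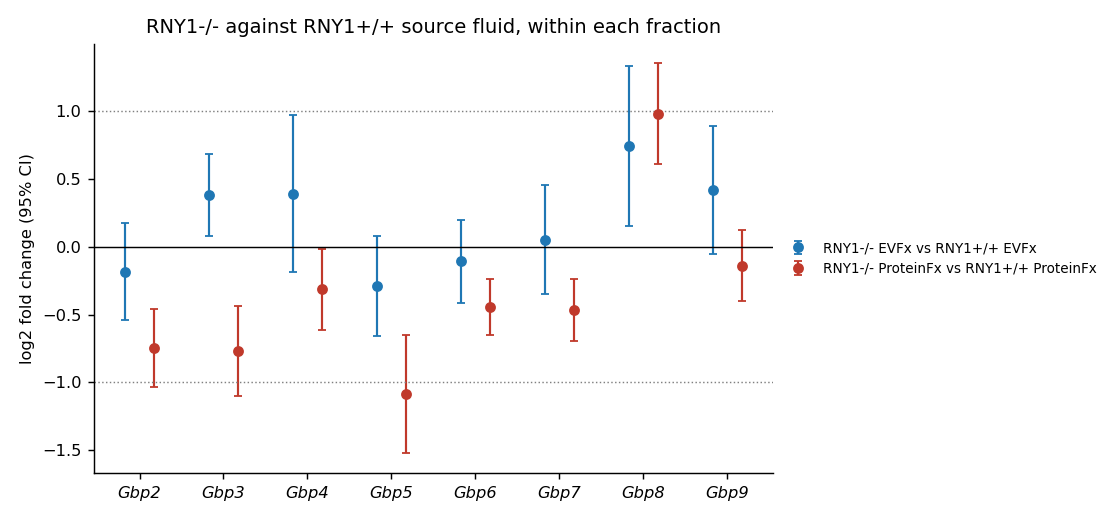
Log2 fold change of the 8 members with RNY1-/- against RNY1+/+ source, within EVFx (blue) and ProteinFx (red), with 95% confidence intervals; dotted lines mark a change of 1 either way. Within ProteinFx, 5 members lie below 0 and Gbp8 above it with adjusted p under 0.05, and within EVFx 6 of the 8 intervals hold 0.

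The genotype difference itself was compared between fractions as an interaction over 16 libraries. It differed for 2 of 8 members at an adjusted p under 0.05, where 33.0% of all genes tested did. Between genotypes Gbp3 differed by 0.38 in EVFx, with an adjusted p under 0.05 in only 2 of 8 fits that each left out 1 library. In ProteinFx it differed by -0.77, passing in 7 of 8. Its interaction was -1.16 on the log2 scale (SE 0.23, edgeR adjusted p = 0.00356). This was called in all 16 fits that each left out 1 library. Gbp5 had an interaction of -0.79 (SE 0.29, edgeR adjusted p = 0.0444). It was called in only 5 of those 16 fits, those without RNY1+/+ EVFx replicate 1 or 2, RNY1-/- EVFx replicate 3, RNY1+/+ ProteinFx replicate 3 or RNY1-/- ProteinFx replicate 1. Without any other library its adjusted p was 0.0548 to 0.0974. For Gbp8, whose difference had the same sign in both fractions, the interaction was 0.24 (95% interval -0.49 to 0.97, edgeR adjusted p = 0.607).

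The fractions were also compared directly, although their doses are set in different units and cannot be matched. With RNY1+/+ source, 4 of 8 members were higher DEGs with ProteinFx than with EVFx, where 6.71% of all genes were higher and 6.82% lower DEGs. They were Gbp8 (log2 difference 1.63, SE 0.25), Gbp9 (1.60, SE 0.18), Gbp4 (1.32, SE 0.17) and Gbp7 (1.01, SE 0.14). By adjusted p alone 6 members were higher, with Gbp3 (0.82) and Gbp6 (0.41), against 63.3% of all genes in either direction. Gbp2 (0.16, 95% interval -0.09 to 0.42) and Gbp5 (-0.31, 95% interval -0.69 to 0.07) did not pass. The call of Gbp7, close to the limit on fold change, was lost without RNY1+/+ EVFx replicate 3 or 4 or RNY1+/+ ProteinFx replicate 2 or 4, at log2 values down to 0.89. After removal of length and GC trends Gbp7 differed by 0.62 (adjusted p = 0.000635) and Gbp6 by 0.05 (adjusted p = 0.654), while the difference of Gbp8 was 1.41.

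With RNY1-/- source, Gbp8 (log2 difference 1.87, SE 0.18) and Gbp9 (1.05, SE 0.16) were higher DEGs with ProteinFx than with EVFx and Gbp5 was a lower one. Among all genes tested, 4.98% were higher and 4.05% lower DEGs. Gbp5 fell by 1.11 on the log2 scale (SE 0.19, edgeR adjusted p = 0.000721), from 30.0 to 49.4 CPM with EVFx to 16.1 to 29.1 with ProteinFx, without overlap. By adjusted p alone Gbp7 was higher too (0.48, edgeR adjusted p = 0.0383), making 4 of 8 members against 29.2% of all genes. With the replicate block, Gbp2 (-0.38, adjusted p = 0.0178) and Gbp4 (0.64, adjusted p = 0.0335) passed as well. The call of Gbp9 was lost without RNY1-/- EVFx replicate 3 or 4 and with RNY1-/- ProteinFx replicates 1 and 2 alone (0.97), where that of Gbp5 was also lost (-0.89). With total counts the call of Gbp5 was lost too.

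Of the other rows of the family, Gbp11 was at 0 to 1.33 counts in the PBS libraries, under the 3 counts taken as measurable, and reached 1.49 to 5.22 CPM with the EVFx groups and 11.5 to 23.7 with the ProteinFx groups. Its ProteinFx libraries lay above all its EVFx libraries, as did those of Gbp8 and Gbp9 in the same cluster and of Gbp7 on chromosome 3. ProteinFx and EVFx libraries overlapped for the other members, Gbp4 and Gbp6 of chromosome 5 among them, and for Gbp10. Gbp10 ran from 0.890 to 1.39 CPM in PBS and from 14 to 33.6 with the fractions. All end windows of its longest transcript also occur in Gbp6 or Gm43302, so these values cannot be told apart from those of Gbp6. Gbp2b stayed at or under 1.04 CPM in all 20 libraries and Gbp2-ps at or under 0.199.

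Other genes of the pathway were counted in 6 lists. Of the genes that act with guanylate-binding proteins on vacuoles, 10 of 10 tested were higher DEGs in each of the 4 comparisons with PBS. With RNY1+/+ ProteinFx the largest rises among them were those of the immunity-related GTPases Iigp1 (log2 fold change 5.79, SE 0.17), Tgtp1 (4.87, SE 0.18) and Tgtp2 (4.84, SE 0.18), the last a near copy of Tgtp1 whose reads may be shared, and of Gvin1 (3.17, SE 0.13), a very large interferon-inducible GTPase. Like Gbp3, Gbp4, Gbp7, Gbp8 and Gbp9, Iigp1 was higher with RNY1+/+ ProteinFx (301 to 421 CPM) than with RNY1+/+ EVFx (45.4 to 113 CPM), a log2 difference of 2.18 (SE 0.23). Between genotypes none of these 10 was a DEG in either fraction. Few of all genes were: 0.378% higher and 1.98% lower in EVFx, 0.659% and 1.17% in ProteinFx. A list of 10 without a DEG is thus not read as unchanged. Within ProteinFx their median log2 difference was -0.35, against -0.46 for the members and 0.02 for all genes. Within EVFx it was 0.06, against 0.22 for the members and -0.001 for all genes.

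Of the genes of interferon signalling, 6 of 14 tested were higher DEGs with RNY1+/+ EVFx, and 6 of 15 higher and 1 lower with RNY1+/+ ProteinFx. In the former these included Usp18, a feedback inhibitor at the type I interferon receptor (log2 fold change 3.13, SE 0.19), Jak2 (2.40, SE 0.12) and Stat2 (2.23, SE 0.16). Usp18 was the only DEG of this list between genotypes within ProteinFx. It fell by 1.09 on the log2 scale (SE 0.13, edgeR adjusted p = 0.000352), close to the value of Gbp5, from 167 to 188 CPM to 67.4 to 110 CPM. Within EVFx none of 15 was a DEG, where 0.378% of all genes were higher and 1.98% lower DEGs. Beside the 1 lower DEG with RNY1+/+ ProteinFx against PBS, 2313 of all 10832 genes were DEGs there, 971 of them higher.

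Of the ligands, Il12b, a subunit of interleukin-12 which drives interferon gamma production by lymphocytes, was at 17.3 to 25.0 CPM with RNY1+/+ EVFx, at most 1.00 with RNY1+/+ ProteinFx and at most 0.457 in PBS. Its order over the fractions was thus the reverse of that of Gbp4, Gbp7, Gbp8 and Gbp9. Only 1 of the 7 ligands passed the filter on low counts in the ProteinFx comparisons with PBS, and 3 in the EVFx ones. Of the interferons listed, Ifna4 was at 0 CPM in every library, Ifng reached at most 0.140 CPM and Ifnb1 at most 0.957. Of the inflammasome genes downstream, 4 of 10 tested were higher DEGs with RNY1+/+ EVFx and 4 of 10 with RNY1+/+ ProteinFx, in both cases Il1b, the caspases Casp4 and Casp1 and the pore former Gsdmd. Casp4, the lipopolysaccharide sensor that guanylate-binding proteins help to reach its ligand, rose by a log2 fold change of 2.47 (SE 0.11) and 2.77 (SE 0.13). Il1b was the list's DEG between genotypes, lower with RNY1-/- source by 1.21 (SE 0.17) in EVFx, where it was at 14.1 to 28.3 CPM against 41.4 to 57.1, and at 3.59 to 7.75 CPM against 18.4 to 87.1 in ProteinFx.

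The remaining lists held few DEGs against PBS. Of all genes tested, 2313 of 10832 were DEGs with RNY1+/+ ProteinFx, and 971 of these were higher. With RNY1-/- ProteinFx 1552 of 10854 were DEGs, and 685 of these were higher. Lower DEGs were thus common among all genes, and the small counts below are not read as results about the lists. Of the ATG8 conjugation genes, which place guanylate-binding proteins on vacuoles, 1 of 11 was a higher DEG with RNY1+/+ EVFx, the autophagy receptor Sqstm1 (2.90, SE 0.19), and 2 of 10 were lower with RNY1+/+ ProteinFx, Gabarapl1 (-1.71, SE 0.27) and Gabarap (-1.46, SE 0.30). The list's medians were -0.19 and -0.32. With RNY1-/- ProteinFx 3 of 11 were lower DEGs, with a median of -0.58. Of the 5 genes tested that attach or process the lipid anchor of CaaX proteins such as Gbp2 and Gbp5, none was a DEG with RNY1+/+ EVFx and 1, the protease Rce1 (-1.08, SE 0.33), was lower with RNY1+/+ ProteinFx. Rce1 was also lower with RNY1-/- than with RNY1+/+ EVFx (-1.29, SE 0.28).

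The genes whose pattern was most like the members' mean over the 20 libraries, by Pearson's r of log2 CPM among 7551 genes with a mean of at least 10 CPM, were AW112010 (r = 0.995), Ms4a4c (0.995), Ifi47 (0.994), Ifi208 (0.994) and Ifi213 (0.993). The libraries share their treatment groups, and the step from PBS to the fractions carries most of each r. Ifi47 is also one of the vacuolar partners counted above. AW112010 was at 47.8 to 61.9 CPM in PBS, 1079 to 1657 with RNY1+/+ EVFx, 1131 to 2144 with RNY1-/- EVFx, 3131 to 4672 with RNY1+/+ ProteinFx and 2472 to 2703 with RNY1-/- ProteinFx. As for Gbp7, its EVFx groups overlapped each other, and RNY1+/+ ProteinFx lay above every other group.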

How the data were processed

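Gene-level values of 20 libraries were used. Per the labels and the study's methods, RNA was sequenced from its 3' ends with molecular identifiers, filtered with fastp 0.24.0, aligned with STAR 2.7.11, deduplicated with UMIcollapse and counted by strand with featureCounts of Subread 2.1.1, reads mapping to several places being shared out as fractions. The submitters' processing notes name GRCm39, and the annotation release is not given in the sources used here. The authors deposited 2 tables of values, expected counts that carry no normalization and CPM relative to each library's total. Counts stand for molecules, fractional ones were rounded before testing, and 3 counts were taken as the floor.

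Genes kept by filterByExpr with a mean of at least 3 CPM entered edgeR 4.0.16 with TMM factors and its quasi-likelihood test (glmQLFit, glmQLFTest) on the 8 libraries of each comparison, or 16 for the interaction, with Benjamini-Hochberg adjustment over all genes tested. SEs were obtained by dividing each log2 fold change by the root of its F statistic, and 95% intervals use the fitted degrees of freedom. Alternatives were DESeq2 1.42.0, total counts, other filters and rounding, 1 fit of all 20 libraries, no limit on the fold change, a replicate block, removal of length and GC trends (splines of 4 degrees of freedom on GENCODE GRCm38 transcripts), pairs of RNY1-/- ProteinFx libraries, and leaving out each library. The fitting script was tested on simulated data. Deviations of same-numbered libraries correlated over 0.1 in every pair only for RNY1-/- EVFx, with PBS (0.129 to 0.381) and with RNY1-/- ProteinFx (0.218 to 0.399). With PBS, only 1 of 4 libraries had its best match under its own number, against 4 of 4 with RNY1-/- ProteinFx. All main fits were unpaired, and the replicate block was run as an alternative for every comparison.

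The text names all Gbp rows, up to 4 genes of each list by the size of their change among DEGs, and the 5 most alike genes. An item withheld from the text is not reported here. Il12b, Casp4 and Iigp1 between fractions were singled out after their values were seen, and Ifna4, Ifng and Ifnb1 are named besides. The members and lists were chosen with earlier results of these data known. Promoters are from RefSeq, which gave 4 of 8 members. R 4.3.3, limma 3.58.1, python 3.11.15, numpy 2.4.6, pandas 2.3.3 and matplotlib 3.10.9 were also used.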

Additional observations from a re-analysis of the deposited data

Results flagged for a closer look

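Gbp7 in PBS replicate 1, at 18.4 CPM, stood apart from the other 3 PBS libraries, which lay between 23.0 and 23.4 CPM, its gap taking 0.902 of the group's range. It was the 1 such library among 40 combinations of member and group, where chance gives about 1 in 20. The genotype difference differed between fractions for Gbp3, by -1.16 on the log2 scale (SE 0.23, edgeR adjusted p = 0.00356), and for Gbp5, by -0.79 (SE 0.29, edgeR adjusted p = 0.0444). For Gbp3 the difference was 0.38 in EVFx and -0.77 in ProteinFx, and for Gbp5 it was -0.29 and -1.09.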

How the results depend on the processing

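Under the alternatives listed, other than no limit on the fold change, 856 values of single members were tallied. From the fits that each left out 1 library, only the lowest and highest value entered. Of the 856, 815 kept their direction and their side of the limits, 19 lost a call, 15 gained one and 7 changed sign. All of the latter were values not called in either fit. Calls lost in the other fits that left out 1 library are not in this tally. The Gbp5 interaction, for example, was called in only 5 of 16 such fits. These 7 concerned Gbp7 between genotypes in EVFx (-0.016 with total counts, -0.27 after removal of length and GC trends, -0.082 to 0.20 on leaving out a library), Gbp6 in the same comparison (-0.20 to 0.0067 on leaving out a library), Gbp6 between fractions from RNY1-/- donors (-0.041 to 0.17), and the interactions of Gbp6 (0.047 after removal of the trends) and Gbp8 (-0.0038 to 0.43 on leaving out a library). With no limit on the fold change, 2 members passed between genotypes in EVFx and 6 in ProteinFx. Between genotypes in ProteinFx, 2 members were DEGs with no filter on low counts, 2 after removal of the trends and 2 with RNY1-/- ProteinFx replicates 3 and 4 alone, and 0 to 2 on leaving out a library. Between fractions from RNY1-/- donors, 1 was a DEG with replicates 1 and 2 alone, and 2 to 3 on leaving out a library. The interaction was called for 1 member with total counts, 1 with all 20 libraries in 1 fit and 1 with either pair of RNY1-/- ProteinFx libraries, for 5 with no filter, and for 1 to 6 on leaving out a library. Against PBS, 7 to 8 members stayed DEGs on leaving out a library. With the replicate block the counts of DEGs were 8 in each comparison with PBS, 0 and 1 between genotypes in EVFx and ProteinFx, 4 and 3 between fractions from RNY1+/+ and RNY1-/- donors, and 3 interactions (Gbp2, Gbp3, Gbp5). In the EVFx genotype comparison, same-numbered libraries did not all deviate together. The block gave 6 members an adjusted p under 0.05 there in place of 2. Between genotypes in ProteinFx, Gbp6 (edgeR adjusted p = 0.0696) and Gbp7 (edgeR adjusted p = 0.0780) no longer passed with it. Total counts moved the median log2 fold change of all genes from -0.03 to between -0.27 and -0.10 against PBS, and to 0.11 between genotypes in ProteinFx, 0.19 between fractions from RNY1-/- donors and 0.17 for the interaction. The share of DEGs that were higher, over all genes, went from 50.1% to 37.3%, 40.1% to 24.5% and 42.0% to 29.4% for RNY1+/+ EVFx, RNY1-/- EVFx and RNY1+/+ ProteinFx against PBS, from 36.1% to 50.5% between genotypes in ProteinFx, from 55.2% to 68.9% between fractions from RNY1-/- donors and from 50.9% to 73.7% for the interaction. Removal of length and GC trends took it from 44.1% to 57.7% for RNY1-/- ProteinFx against PBS. The cause of these changes was not tested. Depth limits Gbp5 in PBS, at 1 to 11 counts per library, Gbp8 in PBS, at 17.5 to 35 counts, and Gbp11, under the floor there.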
